A study of Mus musculus with 15 samples.

Results

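Methionine salvage returns the sulfur and methyl group of methylthioadenosine, a by-product of polyamine synthesis, to methionine. The 5 genes described here, Mtap, Mri1, Apip, Enoph1 and Adi1, encode the enzymes of its consecutive steps. They were matched from gene symbol to Ensembl ID and are 5 of 37620 gene IDs in the deposited expression files. Their levels were read in 15 RNA-seq libraries of lung metastases of B16-F10.1, a pigmented mouse melanoma line that colonises the lung from the blood. All hosts were male C57BL/6J mice. For the adequate, restricted and deficient diets the mice were aged 8 weeks, received 100000 cells by tail vein and were left for 21 days before 2 weeks on the diet. The diets were methionine adequate (n = 3, no percentage labelled), supplemented (300% of methionine, n = 6), restricted (25%, n = 3) and deficient (0%, n = 3). The supplemented diet is known from the sample labels alone, because the series' design text names the other diets only, so the age, cell number and times of these 6 libraries are not stated in the sources used here. Every group carried the same tumour line, and no group was tumour-free lung. Total RNA was depleted of ribosomal RNA with a Ribo-Zero Gold kit and made into strand-marking TruSeq libraries. No label ties a library to its own mouse. The p-values therefore describe only the spread among these libraries, which may be technical.

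Methylthioadenosine is split off when the aminopropyl group of decarboxylated S-adenosylmethionine is used to build spermidine and spermine. The phosphorylase encoded by Mtap cleaves it to adenine and methylthioribose phosphate, and the isomerase (Mri1), dehydratase (Apip), enolase-phosphatase (Enoph1) and dioxygenase (Adi1) carry the sugar phosphate on to the keto acid of methionine, which a transaminase then aminates. MTAP lies beside the CDKN2A tumour suppressor gene in humans and is often lost with it in tumours, and the methylthioadenosine that then builds up inhibits the methyltransferase PRMT5.

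The promoters of Mtap, Mri1 and Enoph1 are shown because Mtap and Mri1 encode the first steps of the pathway, whose count ratio is described with the results, and because only Enoph1 held an E-box. Each runs 5′ to 3′ from 250 bases before to 50 after the gene start in RefSeq (GRCm38.p6), and capitals mark every match to 5 searched motifs on either strand. They cover chr4:89137120-89137419 (plus strand) for Mtap, chr8:84257275-84257574 (minus strand) for Mri1 and chr5:100039744-100040043 (plus strand) for Enoph1.
Mtap: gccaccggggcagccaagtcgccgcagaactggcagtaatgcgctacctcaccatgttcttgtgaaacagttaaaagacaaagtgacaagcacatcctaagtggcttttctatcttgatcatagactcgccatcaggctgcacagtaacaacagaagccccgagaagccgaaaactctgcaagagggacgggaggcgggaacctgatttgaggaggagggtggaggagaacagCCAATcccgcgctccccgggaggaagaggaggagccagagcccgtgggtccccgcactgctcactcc
Mri1: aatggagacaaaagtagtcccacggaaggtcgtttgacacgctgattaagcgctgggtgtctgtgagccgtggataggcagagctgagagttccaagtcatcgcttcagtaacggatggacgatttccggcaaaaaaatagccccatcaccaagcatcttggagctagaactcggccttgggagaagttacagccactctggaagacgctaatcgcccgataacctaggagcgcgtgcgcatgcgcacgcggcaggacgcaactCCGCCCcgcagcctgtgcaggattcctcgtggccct
Enoph1: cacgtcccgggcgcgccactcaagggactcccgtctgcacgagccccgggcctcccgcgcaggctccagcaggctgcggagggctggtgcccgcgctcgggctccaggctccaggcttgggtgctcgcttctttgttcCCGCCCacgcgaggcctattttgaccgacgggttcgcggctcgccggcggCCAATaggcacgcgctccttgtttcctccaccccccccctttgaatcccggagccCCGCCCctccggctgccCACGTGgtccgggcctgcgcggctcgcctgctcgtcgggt
The motifs were the E-box CACGTG, the core of the amino acid response element TGATGNAA, the core of the antioxidant response element TGACNNNGC, the GC box GGGCGG and the CCAAT box CCAAT, and no letters of one overlapped those of another here. A promoter of Apip was also in the table (chr2:103073425-103073724, plus strand), and Adi1 was not matched. CACGTG stood at position +11 of Enoph1 and in no other of the 4 promoters, against 7.15% of all 32851 promoters of this length. TGATGNAA (3.97% of all promoters) and TGACNNNGC (12.4%) matched none of the 4. GGGCGG (35.7%) matched Mri1 in 1 place and Apip and Enoph1 in 2 each, and CCAAT (37.4%) matched Mtap, Apip and Enoph1 in 1 each. The matches describe letters in a window and say nothing of a factor's binding.

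Total expected counts, the read numbers that RSEM estimates for each gene, were 13107679 to 29994264 per library. Melanocyte markers were detected in every library, 7 of 7, with a mean log2 of CPM, counts per 1000000 counts of the library, between 9.93 and 10.85. The lung level, from 14 alveolar markers, ranged from -0.04 to 8.26. It averaged the mean log2 CPM of 8 alveolar type 2 markers and that of 6 alveolar type 1 markers. All 14 were read in 13 of 15 libraries, while 5 were at 0 in supplemented replicate 5 and 1 was at 0 in restricted replicate 2. RNA of lung and tumour was mixed in these tissues, so fewer cells of a type and less RNA per cell cannot be told apart. Adequate replicate 1 had a TMM scaling factor (edgeR's correction for library composition) of 0.69 (the other libraries lay between 0.945 and 1.156), supplemented replicate 5 had 4 skeletal muscle markers summing to 1250 CPM (at most 8.13 elsewhere), and deficient replicate 3 had the highest lung level, 8.26 (at most 6.54 elsewhere). Values without these 3 libraries are given beside the results they move most.

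All 5 genes were read in every library, with expected counts of at least 73 (Apip, supplemented replicate 3). Lowest to highest expected count was 851 to 2894 for Mtap, 323 to 1018 for Mri1, 73 to 344 for Apip, 126 to 423 for Enoph1 and 416 to 1035 for Adi1. Counting error at the lowest count was between 3.43% and 11.7%, below the spread between libraries. Per unit of transcript length, in transcripts per 1000000 (TPM), Mtap was the highest of the 5 in 15 of 15 libraries (median 17.3 TPM, range 10.7 to 40.8). Enoph1 was the lowest in 14 of 15 (median 4.09 TPM), with a tie with Apip in the remaining library. Adi1 (median 10.1 TPM) was above Mri1 (8.89 TPM) in 10 of 15 libraries, so these neighbours in the order did not separate, and Mri1 was above Apip (7.65 TPM) in 13 of 15. The TPM order thus placed the first enzyme of the pathway on top, and its mean share of the summed TPM of the 5 genes was 36.9%. In 12 of 15 libraries Adi1 carried a fractional count, which RSEM gives to reads shared with another gene, whereas the other members had none.

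No diet comparison of any member passed the test. Among 30 member and contrast pairs, 0 had an adjusted p under 0.05 in edgeR's quasi-likelihood test with Benjamini-Hochberg adjustment over 16001 genes, 2 had an unadjusted p under 0.05, and DESeq2 and limma-voom also called 0. Few genes passed anywhere: in deficient against adequate libraries 0.00625% of all genes (1 of 16001) were called, and in the other 5 contrasts 0% were. At an unadjusted p under 0.05 the share of all genes was 15.1% in deficient against adequate, 9.17% in restricted against adequate, 9.77% in supplemented against adequate, 7.44% in deficient against restricted, 5.45% in deficient against supplemented and 2.18% in restricted against supplemented libraries. DESeq2 called more genes: 586 in deficient against adequate, 127 in restricted against adequate, 105 in supplemented against adequate, 9 in deficient against restricted and 0 in the remaining contrasts, with no member among them (smallest adjusted p 0.204). The 95% intervals lay within a 2-fold change both ways for 26 of the 30 pairs, and 17 of the fold changes were smaller than their own standard error. Contrasts that share a diet share its libraries and are not independent of one another.

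**Figure D1:**
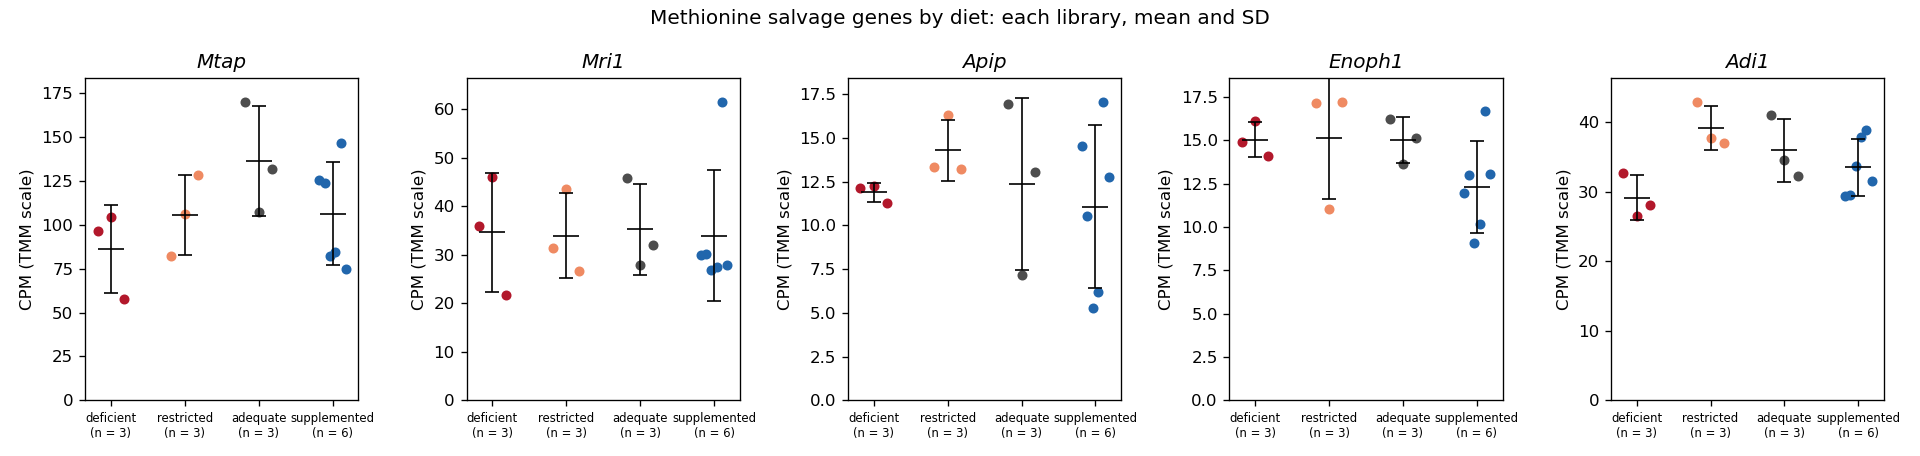
Level of each of the 5 salvage genes in each of the 15 libraries, in CPM on the TMM scale (vertical axes from 0, 1 panel per gene) by diet (horizontal axis), with 1 point per library and bars for the mean and its SD. Most pairs of diets overlap, while the 3 deficient libraries lie under the 3 adequate ones for Mtap and under the 3 restricted ones for Apip and Adi1.

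Mtap (ENSMUSG00000062937), the phosphorylase that opens the pathway, measured 169.7, 107.3 and 131.6 CPM in the adequate libraries and 96.4, 104.4 and 57.5 CPM in the deficient libraries. The restricted libraries had 82.5, 106.0 and 128.2 CPM, and the 6 supplemented libraries ran from 74.7 through a median of 104.3 to 146.4 CPM. All 3 deficient libraries were thus under all 3 adequate ones, though only just (104.4 against 107.3 CPM), and the other diets spanned both. Groups that do not overlap in this direction were found for 7.96% of all genes in this contrast. In TPM the groups overlapped for Mtap, with 10.7, 18.65 and 22.74 in adequate and 13.7, 17.44 and 11.8 in deficient libraries. TPM carry no TMM scaling, and this overlap rests on the 10.7 of adequate replicate 1. That library had a TMM factor of 0.69 and the highest CPM of Mtap, 169.7, so the overlap in TPM does not weigh against the order in CPM. The log2 fold change of deficient against adequate libraries was -0.66 (SE 0.29, fold 0.63, 95% interval 0.413 to 0.970), with an unadjusted p of 0.0373 and an adjusted p of 0.297 in edgeR, and 5.84% of all genes were lower at an unadjusted p under 0.05. It depended on the libraries that stand apart: it was -0.25 without those 3 (edgeR unadjusted p of 0.347, adjusted p of 0.761), -0.48 without adequate replicate 1 and -0.44 without deficient replicate 3. Markers of other cell types moved in the same contrast: 6 of 7 endothelial, 3 of 6 fibroblast, 2 of 6 macrophage, 4 of 7 lymphocyte and 1 of 5 blood markers were higher in deficient libraries with no overlap, while 5 of 5 hepatocyte markers and 1 of 7 melanocyte markers were lower. Endothelial markers summed to 87.5 to 132 CPM in adequate and 172 to 1228 CPM in deficient libraries, fibroblast markers to 275 to 428 CPM and 645 to 850 CPM, and hepatocyte markers to 6.55 to 36.4 CPM and 0.212 to 0.608 CPM, with Alb at 0 in every deficient library. None of the 14 alveolar markers separated these diets. Of all genes, 7.91% were higher and 7.96% lower in deficient than in adequate libraries with no overlap. The part of these cells in the Mtap difference was not tested. Against adequate libraries, restricted ones gave -0.37 (SE 0.29) and supplemented ones -0.36 (SE 0.25) on the log2 scale, neither past the threshold.

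Mri1 (ENSMUSG00000004996), the isomerase, had nearly the same mean in every diet: 35.2 ± 9.36 CPM (SD, n = 3) in adequate, 33.97 ± 13.5 (n = 6) in supplemented, 33.9 ± 8.71 (n = 3) in restricted and 34.6 ± 12.2 (n = 3) in deficient libraries. The adequate libraries had 45.8, 27.98 and 31.9 CPM, the restricted ones 31.5, 43.6 and 26.8 CPM, and the deficient ones 35.9, 46.1 and 21.8 CPM. Supplemented replicate 5 reached 61.4 CPM, while the other 5 supplemented libraries lay between 26.9 and 30.1 CPM. The spread within each diet was therefore far wider than the difference between diets, and log2 fold changes were between -0.05 and 0.03 in all 6 contrasts, each with an SE of 0.29 to 0.34. Without the 3 libraries that stand apart, the log2 fold change was 0.45 for deficient against adequate (edgeR unadjusted p of 0.0457, adjusted p of 0.383) and 0.53 for deficient against supplemented (unadjusted p of 0.0072, adjusted p of 0.513). In the full set the same contrasts gave -0.02 and 0.03. The libraries left out held the highest adequate (45.8 CPM), highest supplemented (61.4 CPM) and lowest deficient (21.8 CPM) value of Mri1. Leaving them out therefore moves both fold changes upward, and these p-values do not show an effect of diet.

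Apip (ENSMUSG00000010911), the dehydratase, measured 16.9, 7.17 and 13.1 CPM in adequate, 13.3, 16.3 and 13.3 CPM in restricted and 12.1, 12.2 and 11.3 CPM in deficient libraries. The supplemented libraries ran from 5.27 through a median of 11.7 to 17.0 CPM. Over all 15 libraries the highest was 3.23 times the lowest, the widest ratio among the 5 genes. All 3 deficient libraries lay under all 3 restricted ones, as did 6.38% of all genes, but the log2 fold change was -0.27 with an SE of 0.40 (edgeR unadjusted p of 0.513, adjusted p of 0.954). In TPM these groups overlapped (5.85 to 7.82 in deficient and 7.74 to 8.98 in restricted libraries). The biological coefficient of variation of Apip, edgeR's measure of spread beyond counting error, was 0.357 and was the highest of the 5.

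Enoph1 (ENSMUSG00000029326), which enolises and dephosphorylates the intermediate, had 16.3, 13.6 and 15.1 CPM in adequate, 17.1, 11.0 and 17.2 CPM in restricted and 14.9, 16.1 and 14.1 CPM in deficient libraries. Supplemented libraries ran from 9.10 through a median of 12.5 to 16.7 CPM, so they spread over most of the range of the other diets. Deficient and adequate means were 15.1 and 15.01 CPM, and the log2 fold change was 0.0043 with a 95% interval from -0.51 to 0.52. Supplemented against adequate gave -0.28 (SE 0.21), deficient against supplemented 0.29 (SE 0.21) and restricted against supplemented 0.30 (SE 0.21), and none passed in edgeR (adjusted p 0.689, 0.910 and 1).

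Adi1 (ENSMUSG00000020629), the dioxygenase that forms the keto acid of methionine, had the smallest spread, with a biological coefficient of variation of 0.169 and a ratio of highest to lowest library of 1.62. The adequate libraries had 41.0, 34.6 and 32.2 CPM, the restricted ones 42.8, 37.7 and 37.1 CPM and the deficient ones 32.7, 26.5 and 28.1 CPM. Supplemented libraries ran from 29.4 through a median of 32.6 to 38.9 CPM. The deficient libraries were all under the restricted ones, again among 6.38% of all genes, while adequate and deficient libraries overlapped (32.2 against 32.7 CPM). The log2 fold change of deficient against restricted was -0.43 (SE 0.17, 95% interval of the fold 0.582 to 0.948), with an unadjusted p of 0.0201 and an adjusted p of 0.649 in edgeR. In this contrast 2.28% of all genes were lower at an unadjusted p under 0.05. Between these diets 2 of 7 melanocyte and 1 of 5 hepatocyte markers were lower with no overlap. Higher with no overlap were 1 of 6 fibroblast and 1 of 7 lymphocyte markers. Of all genes 6.38% were lower and 4.71% higher in this way. The part of these cells in the Adi1 difference was not tested. Under the other settings tried, leaving out single libraries included, the value stayed between -0.53 and -0.35. Adi1 counts include reads shared with another gene in most libraries, so its level is uncertain to that extent.

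**Figure D2:**
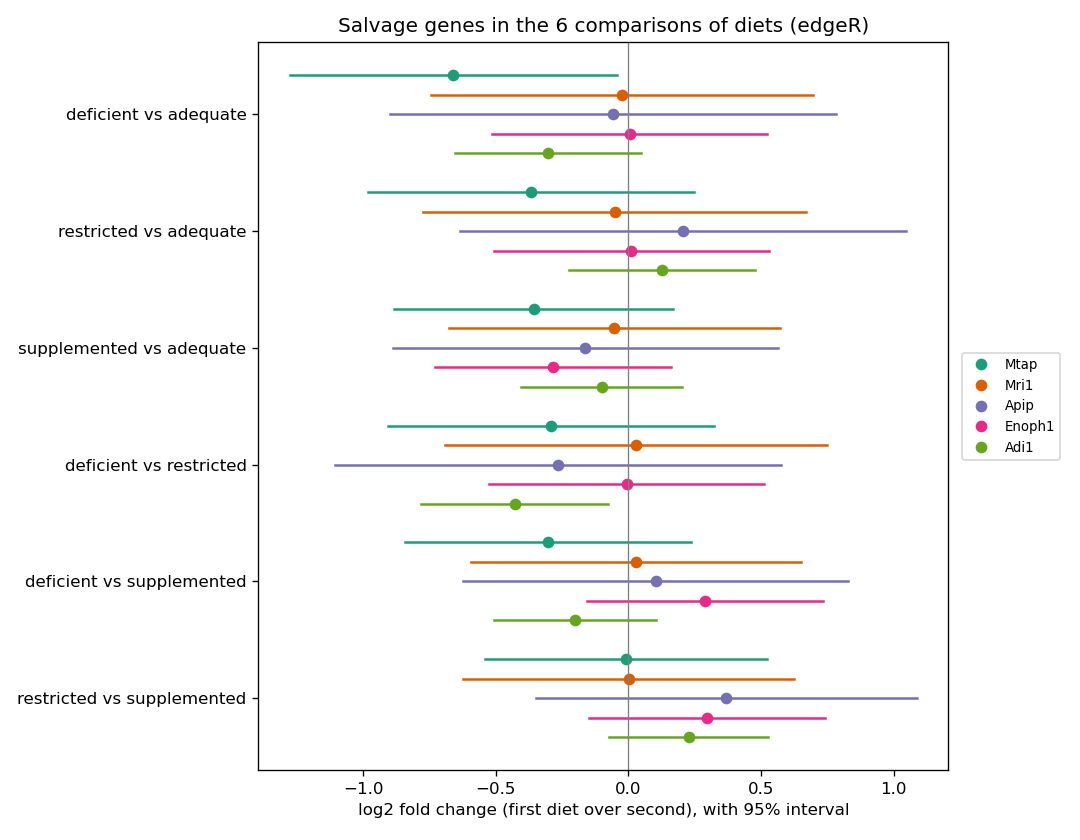
Log2 fold change (horizontal axis) of each salvage gene in the 6 contrasts between diets, with 95% intervals from edgeR. Intervals of Mtap for deficient against adequate (-1.28 to -0.04) and of Adi1 for deficient against restricted (-0.78 to -0.08) do not reach 0, and the others do.

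Tested jointly over the 4 diets, the genes gave an edgeR p of 0.194 for Mtap, 0.998 for Mri1, 0.753 for Apip, 0.377 for Enoph1 and 0.107 for Adi1 (adjusted p 0.595 or more), against 9.47% of all genes under 0.05. Along the rank of dietary methionine from deficient to supplemented, the smallest p was that of Enoph1 (0.137, slope -0.10 per rank), and 3.47% of all genes were under 0.05. No member was called in either test.

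Libraries with a higher lung level had less Mri1. Over the 15 libraries the correlation of its log2 CPM with the lung level was r = -0.842 (permutation p = 0.00016, adjusted 0.0016 over 10 relations) and rho = -0.789 (p = 0.00056, adjusted 0.0056). The lowest Mri1 value, 21.8 CPM, was in deficient replicate 3 at a lung level of 8.26, and the highest, 61.4 CPM, in supplemented replicate 5 at -0.04. Without the 2 libraries farthest from the median lung level, supplemented replicate 5 and restricted replicate 2, r was -0.67, without the 3 libraries that stand apart it was -0.75 (n = 12), and for deviations from the diet means it was -0.907. Among 16001 tested genes 13, or 0.0812%, had an r as low as that of Mri1, and the median r of all genes was 0.01. All genes here share libraries and scaling, and the relation was examined after earlier results were known.

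Mtap gave r = -0.616 with the lung level (permutation p = 0.0117, adjusted 0.0587; rho = -0.629, adjusted 0.0441), with 5.72% of all genes as low. Its r was -0.716 without the 2 farthest libraries and -0.435 without the 3 libraries that stand apart. Apip gave r = -0.504 (adjusted permutation p = 0.121), with 12.6% of all genes as low, whereas rho was -0.675 (adjusted permutation p = 0.0388). The r of Apip was -0.31 without the 2 farthest libraries and -0.577 without the 3 that stand apart. Enoph1 (r = -0.216) and Adi1 (r = -0.348) showed no such relation past adjustment. Thus only Mri1 passed with both coefficients, and none of the 5 genes had an adjusted p under 0.05 with the melanocyte level (smallest 0.133). With the lung level as a covariate, the log2 fold change of Mtap in deficient against adequate libraries was -0.56 (edgeR unadjusted p of 0.0298, adjusted p of 0.312).

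**Figure D3:**
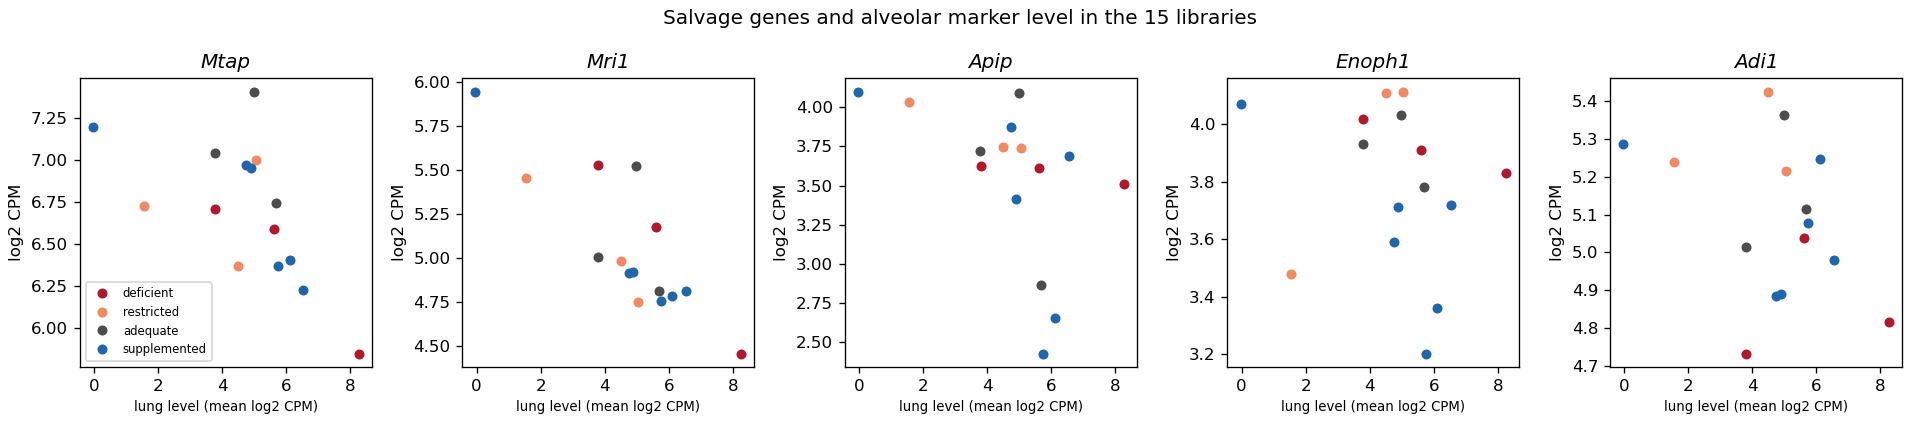
Log2 CPM of the salvage genes (vertical axis) against the lung level (horizontal axis), with 1 point per library coloured by diet. The lung level averages the mean log2 CPM of 8 alveolar type 2 markers and that of 6 alveolar type 1 markers. Mri1 declines from supplemented replicate 5, at a lung level of -0.04, to deficient replicate 3, at 8.26.

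No pair of members correlated past adjustment. Of the 10 pairs of members the highest correlations over 15 libraries were Apip with Enoph1 (r = 0.645), Mtap with Mri1 (r = 0.619) and Mri1 with Apip (r = 0.571), with permutation p adjusted over the 10 pairs of 0.0549, 0.0545 and 0.0545 (rho adjusted 0.119 for each). The other 7 pairs had r between 0.128 and 0.459, and Adi1 was between 0.128 and 0.288 with every other member. Without the 2 libraries farthest from the median, supplemented replicates 3 and 4, Apip with Enoph1 fell to r = 0.125. Among 11865 genes that carry a symbol and reach a mean of 1 on the log2 CPM scale, Mri1 ranked 1478th in likeness to Mtap, and Enoph1 ranked 273rd in likeness to Apip. The genes with the most similar pattern over 15 libraries were Alkbh3 (r = 0.92), Trip13 and Ap1s1 for Mtap, and Snx5 (r = 0.908), Api5 and Rps20 for Mri1. They were Hist1h2bj (r = 0.864) and the near-identical pair Hist2h2aa1 and Hist2h2aa2 for Apip, Nsrp1 (r = 0.826), Fsd2 and Fgfr1op for Enoph1, and AW146154 (r = 0.819), Neil2 and Fabp5 for Adi1. All of these share the same libraries.

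The ratio of Mtap to Mri1 counts needs no scaling between libraries, and it was examined after its values were seen, so it carries no test. It was 3.71, 3.83 and 4.12 in the adequate libraries and 2.68, 2.27 and 2.64 in the deficient libraries, which did not overlap. The restricted libraries (2.43 to 4.79) and supplemented libraries (2.38 to 4.19) spanned both. Of the 10 ratios between members, 3 separated deficient from adequate libraries, all with Mtap as numerator: beside Mri1 these were Apip (5.10 to 8.53 in deficient, 10.02 to 14.96 in adequate) and Enoph1 (4.07 to 6.49 and 7.86 to 10.44). Mtap to Apip was also lower in every restricted than in every adequate library (6.19 to 9.67). All of these ratios share the Mtap counts, so they are not separate results. The share of all pairs of genes that separate in this way was not computed. As a share of the summed TPM of the 5 genes, Mtap took 42.9% ± 1.56 (SD, n = 3) in adequate and 31.7% ± 3.83 (n = 3) in deficient libraries, and Mri1 took 15.9% ± 1.74 and 24.3% ± 3.61.

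The TPM of Mri1 also depends on its length. RSEM reports a length weighted over the transcripts it finds, and that of Mri1, with 5 transcripts, was 1808 to 2146 bases in adequate, 1363 to 1802 in supplemented, 1564 to 2108 in restricted and 1473 to 1589 in deficient libraries. Both the deficient and the supplemented libraries were thus shorter than every adequate library for this gene, which held for 0.678% of 11354 genes with several transcripts. In deficient against adequate alone it held for 5.35%. The joint rule follows the pattern of Mri1 itself, so its share is no test. The nearest supplemented and adequate libraries were close (1802 against 1808 bases). Mri1 overlaps D8Ertd738e in RefSeq, and the strand setting of the counting is not stated in the sources used here, so reads of the pair may not be told apart. Enoph1 likewise overlaps Hnrnpdl. Mri1 and Enoph1 each carried a fractional count in 0 of 15 libraries. How reads of the overlaps were assigned was not tested.

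**Figure D4:**
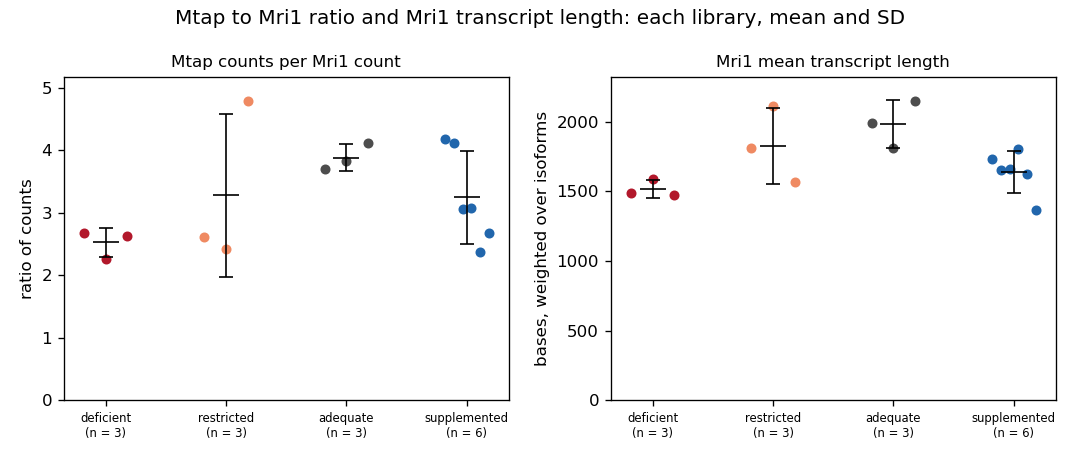
Ratio of Mtap to Mri1 counts (left) and the transcript length of Mri1 in bases as weighted by RSEM (right) in each library, by diet. The 3 adequate libraries have ratios of 3.71 to 4.12 and lengths of 1808 to 2146 bases, above the 3 deficient libraries in both.

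In the mouse genome Cdkn2a is the next protein-coding gene after Mtap in RefSeq, and Ifne is the one before. Cdkn2a had 0 counts in 10 of 15 libraries and 20 counts in all, where a count of 0 allows up to 0.106 to 0.217 CPM per library (3 counts, covering counting error only), and it was too low to be tested. Cdkn2b had 700 counts in all and 0 in 2 libraries, supplemented replicate 5 and restricted replicate 2, which had the lowest lung levels (-0.04 and 1.54). Its highest level, 11.5 CPM, was in deficient replicate 3, which had the highest lung level (8.26). Supplemented replicate 3, at a lung level of 5.75, had only 0.939 CPM. A relation of Cdkn2b to the lung level was not tested. Mtap itself was at 57.5 CPM or more in every library. Mixed tumour and lung tissue cannot show which cells these transcripts came from.

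The enzymes around the pathway did not pass either. Of 23 genes in 4 lists, 21 were tested. They were 4 of 5 enzymes of polyamine synthesis, not all of which release methylthioadenosine, and 8 of 9 transaminases and partners of the last step. The rest were genes that use adenine or make S-adenosylmethionine (4) and the PRMT5 complex (5). In each of the 6 contrasts 0 of 21 were called by edgeR. At an unadjusted p under 0.05 in edgeR, 1 was lower in deficient, 2 in restricted and 1 in supplemented libraries against adequate, and 0 in the other contrasts. Of all genes, 5.84%, 4.31% and 4.92% were lower in this way against adequate, in the same order of diets. Below 0 were 19 of 21 fold changes in deficient against adequate, 18 in restricted against adequate and 17 in supplemented against adequate libraries (of all genes 52.9%, 50.4% and 52.9% were above 0), with medians of -0.28, -0.32 and -0.19 on the log2 scale, where the medians of all genes lay between -0.01 and 0.04. These contrasts share the 3 adequate libraries. Without adequate replicate 1, 15, 13 and 12 of 21 were below 0, with medians of -0.20, -0.16 and -0.02. Without all 3 libraries that stand apart, 11, 13 and 15 were below 0, with medians of -0.003, -0.16 and -0.14. Mat2b, the regulatory subunit of the S-adenosylmethionine synthetase of most tissues, had 34.6, 23.8 and 23.6 CPM in adequate and 14.5 to 22.8 CPM in supplemented libraries. Its log2 difference was -0.59 (SE 0.17), with an unadjusted p of 0.00319 and an adjusted p of 0.322 in edgeR. Without adequate replicate 1 it was -0.40 (edgeR adjusted p of 0.569), and without the 3 libraries -0.38 (adjusted p of 0.322).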

How the data were processed

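RNA-seq was deposited for 15 libraries (3 adequate, 6 supplemented, 3 restricted, 3 deficient), grouped by the labels' diet. Per the submitters' processing notes the authors used Bowtie2 2.2.9, RSEM 1.30 and edgeR with build NCBIM37; the sources used here state neither strand setting nor annotation release. The deposited files hold RSEM expected counts, TPM and transcript lengths per gene, per the file headers. Of 37620 IDs, 32897 matched a symbol.

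Expected counts were rounded and tested with edgeR 4.0.16 (R 4.3.3; glmQLFit, 1 fit of all 15 libraries, TMM, filterByExpr keeping 16001 genes, Benjamini-Hochberg over these, threshold 0.05), after a test on simulated data. CPM are on the TMM scale; log2 CPM used a prior count of 2. TPM, which carry no TMM scaling, served to compare genes and, for Mtap and Apip, to give levels per diet beside CPM. Alternatives were RLE scaling, DESeq2 1.42.0, limma-voom (limma 3.58.1), no filter, a mean of at least 1 CPM, omission of 3 libraries, lung level as a covariate, only the compared groups, and each library left out. Correlations used 100000 permutations, two-sided. Total counts were 13107679 to 29994264 per library.

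Named were the 5 members, their 3 most similar genes each, Cdkn2a, Cdkn2b, and pathway genes called or with an unadjusted p under 0.05 for any difference (Mat2b). Members and lists were chosen with earlier results of these data known.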

Additional observations from a re-analysis of the deposited data

Results flagged for a closer look

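Mri1 in supplemented replicate 5 lay far above the other 5 supplemented libraries: 61.4 CPM against 26.9 to 30.1 CPM. On the log2 CPM scale the gap was 0.861 of the group's range, where 0.625 is the 95% critical value of Dixon's test for 6 samples. That library also had the lowest lung level (-0.04) and skeletal muscle markers summing to 1250 CPM; their part in the value was not tested. Cdkn2b had 0 counts in the same library, so its log2 CPM there was the floor set by the prior count. Its gap of 0.656 of the log2 range rests on that floor and does not measure an outlying level. Of 8 genes checked in the supplemented group these 2 passed the critical value, Cdkn2b through its floor, and chance alone passes about 1 in 20 groups.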

How the results depend on the processing

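Of 302 values under 8 other settings, 0 passed the threshold and 29 changed sign; the cause was not tested. No paired analysis was possible because the labels give no replicate numbers, and those used here only follow accession order. Without the 3 libraries that stand apart, Mri1 turned to 0.45 (deficient against adequate) and 0.16 (restricted against adequate), Apip to 0.27 (deficient against adequate), Mtap to 0.0326 (deficient against supplemented) and 0.0886 (restricted against supplemented), and Enoph1 to 0.0505 (deficient against restricted), all log2. With the lung covariate the values that turned were Apip 0.09 and Mri1 0.116 (deficient against adequate), Enoph1 -0.0238 (restricted against adequate), Enoph1 0.0728 and Apip 0.0119 (deficient against restricted) and Mri1 -0.15 (restricted against supplemented). With limma-voom they were Apip 0.0606, Enoph1 -0.0231 and 0.0389, and Mtap 0.0128, in the contrasts deficient against adequate, restricted against adequate, deficient against restricted and restricted against supplemented. For Enoph1, deficient against adequate became -0.0014 (no filter), -0.0111 (mean of at least 1 CPM) and -0.0039 (compared groups only), restricted against adequate -0.0182 (mean of at least 1 CPM), and deficient against restricted 0.0248 (RLE), 0.0258 (DESeq2), 0.0071 (mean of at least 1 CPM) and 0.0012 (compared groups only). For Mri1, restricted against supplemented became -0.0155 (RLE), -0.0157 (DESeq2), -0.0014 (no filter), -0.0173 (mean of at least 1 CPM) and -0.0043 (compared groups only). Leaving out 1 library at a time changed the sign of 42 of 300 values and called 0. For Mtap the ranges were -0.172 to 0.14 (restricted against supplemented). For Mri1 the ranges were -0.284 to 0.221 (deficient against adequate), -0.233 to 0.272 (deficient against restricted), -0.231 to 0.283 (deficient against supplemented), -0.304 to 0.161 (restricted against adequate), -0.215 to 0.254 (restricted against supplemented), -0.307 to 0.165 (supplemented against adequate). For Apip the ranges were -0.336 to 0.228 (deficient against adequate), -0.038 to 0.268 (deficient against supplemented), -0.068 to 0.484 (restricted against adequate), -0.438 to 0.117 (supplemented against adequate). For Enoph1 the ranges were -0.062 to 0.0561 (deficient against adequate), -0.197 to 0.102 (deficient against restricted), -0.0899 to 0.168 (restricted against adequate). Over all genes, calls in deficient against adequate libraries went from 1 to 586 with DESeq2, and in restricted against adequate from 0 to 127 with DESeq2, 66 without the 3 libraries and 42 with the lung covariate. With DESeq2 they also went from 0 to 105 in supplemented against adequate, from 0 to 9 in deficient against restricted and from 1 to 257 in the joint test. There were 0 members among any of these. Depth limits Apip most, with a counting error of 11.7% at its lowest count.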
